A study of Sus scrofa with 22 samples.

Results

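Stroma (S) and luminal epithelium (LE) of the endometrium were compared within the same cyclic gilts (young female pigs) on Day 12. The comparison holds 6 of the 22 RNA-seq libraries of the study, 1 library labelled S and 1 labelled LE from each of the 3 cyclic gilts 02, 04 and 13, chosen because both cell types were sequenced from these animals and paired by the gilt number. The tables of read counts deposited for S and LE were joined by NCBI gene ID, which gave 10890 of the 12401 genes listed for any cell type. Cells had been cut out of stained frozen sections by laser capture microdissection (LCM). All gilts were prepuberal crossbreeds of German Landrace and Piétrain with ovulation synchronised by PMSG and hCG, and the cyclic ones were inseminated with the supernatant of centrifuged semen. LE of a further cyclic gilt (06), glandular epithelium (GE) of the same gilts, and S and LE of pregnant gilts, inseminated with semen of the same boar, served only as values beside the comparison. By the study's own description, an S capture is an area that contains fibroblasts together with other cells, mainly immune cells.

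The endometrium is lined by LE, a single layer of polarised cells joined by tight junctions, which faces the uterine lumen and is the first maternal tissue that a conceptus touches. Beneath it lies the stroma, in which fibroblasts lay down collagens and proteoglycans around vessels and glands and send paracrine signals such as FGFs to the epithelium. GE lines the glands that open onto the surface and secrete proteins and nutrients into the lumen, and part of the cells of both epithelia can carry motile cilia. By its labels, the comparison sets cells beneath the basement membrane against those above it.

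On listed genes, the 6 libraries held between 2484870 and 4020796 counts, at least 99.1% of them on the joined genes, so that 3 counts correspond to between 0.749 and 1.21 CPM, the share of a library's counts scaled to a fixed total. Each of the 12401 gene IDs was found in the Sscrofa11.1 annotation used here, and 10889 of the joined genes had at least 1 count in the 6 libraries. Pairwise correlations of log2 CPM over 10854 genes were 0.899 to 0.934 among the S libraries, 0.948 to 0.956 among the LE libraries and 0.914 to 0.957 between S and LE of the same gilt, so that S and LE of gilt 13 were the most alike pair of all. Counts of the 6 libraries differed from each other by more than sampling noise in every pair, the closest being the 2 libraries of gilt 13 (chi-square per degree of freedom 8.56 over 10843 genes). The S library of gilt 04 stood apart in multidimensional scaling, at 1.62 on the first dimension (39.4% of the variance), where the other 5 libraries were between -0.82 and 0.22. Values below are CPM after TMM normalization, in gilts 02, 04 and 13 in this order, and a positive log2 FC stands for higher expression in S. SE is the absolute log2 FC divided by the square root of the F statistic of the test, not a separate estimate of precision.

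The markers of the compartments went against the label S. Genes that mark epithelial cells had much the same level in the libraries labelled S as in LE (median log2 FC 0.07 over 22 genes). That 0 of the 22 were called is near the 2.08% of all genes called and is not a result by itself. Of 16 genes that mark fibroblasts, 10 were called lower in S, beside 1.45% of all genes tested. The summed level of the fibroblast markers was below that of LE of the same gilt in each of the 3 animals. In bulk samples of this kind, fewer cells of a type and less RNA per cell cannot be told apart, and the part of other cells in each difference given here was not tested. The libraries are therefore called by their labels, and no cell type is read from them. Whether captured areas or labels of S, LE and GE were mixed or exchanged was not tested. Each signed difference below is therefore one between labels.

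EPCAM, an adhesion molecule of epithelia, was at 389, 309 and 374 CPM in S and 321, 233 and 270.1 CPM in LE, and CDH1, the cadherin of epithelial junctions, at 1228, 803 and 1059 CPM in S and 1077, 879 and 1002 CPM in LE. KRT8, a keratin of simple epithelia, had 805, 823 and 964 CPM in S and 1193, 1032 and 971 CPM in LE. The ranges of S and LE overlapped for the first and second of these genes, and for KRT8 every S value lay below those of LE, the highest of S close to the lowest of LE, without a call (FDR 0.429). All 22 epithelial markers were listed in both tables, and 0 of them were called by edgeR, DESeq2 or voom. The quasi-likelihood test of edgeR called 2.08% of all genes, and 4 of the 22 had an unadjusted p below 0.05 in it. Their log2 FC had a median of 0.07 (-0.62 to 0.49), beside 0.01 over all 10889 genes. Their summed level was 5595, 4771 and 5369 CPM in S and 5666, 4843 and 4907 CPM in LE.

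COL1A1, a chain of type I collagen and a main product of fibroblasts, was at 1217, 2182 and 2212 CPM in S against 3776, 4198 and 4124 CPM in LE. PDGFRB, a PDGF receptor of fibroblasts and pericytes, had 60.8, 41 and 42.6 CPM in S and 152, 112 and 107 CPM in LE, and VIM, the intermediate filament of mesenchymal cells, 165, 189.9 and 239 CPM in S and 339, 488 and 393 CPM in LE. For none of these genes did the ranges overlap, and every S library was below every LE library. Of the 18 fibroblast markers, 16 were in both tables, all 16 were lower in S by sign, 12 without overlap between the libraries, and 10 were called lower, with a median log2 FC of -1.05 (-1.36 to -0.65). Genes called lower in S made up 1.45% of all genes tested, and those lower without overlap 9.29%. The summed level of the 16 genes was 6211, 10400.0 and 10797 CPM in S and 15128, 21660.0 and 18689 CPM in LE, and the median log2 ratio within the gilts was -1.17, -1.20 and -0.82. None of the fibroblast markers was called without the block or without gilt 13, against 6 without gilt 02 and 10 without gilt 04. LOX was listed in the S table only, at 0.402, 12.8 and 7.27 CPM, and TCF21 in neither table.

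Markers of vessels had lower values in S as well. Of the 14 markers of blood endothelium 13 were in both tables, with a median log2 FC of -0.99. All 13 were lower in S without overlap, beside 9.29% of all genes. PECAM1 (27.5, 33.2 and 34.5 CPM in S, 71.5, 89.7 and 55.6 CPM in LE) and ESAM, both adhesion molecules between endothelial cells, were called, beside 1.45% of all genes called lower. These 2 calls were lost without the block and without any single gilt. Smooth muscle and pericyte markers were called lower for 4 of 6 genes (ACTA2, TAGLN, RGS5 and MCAM, median of the list -1.02), although the exons of MCAM overlap those of CBL on the opposite strand by 58.4% and the use of strand in counting is not given in the sources used here. Of these 4 calls 1 was left without gilt 04, and 0 without gilt 02, gilt 13 or the block. The leukocyte list had 7 of 22 genes in both tables, 0 of them called by the quasi-likelihood test of edgeR (3 with an unadjusted p below 0.05). DESeq2 called 1 of them, voom 1 and the likelihood ratio test of edgeR 2. The list had a median of -0.76 and summed levels of 134, 118 and 125 CPM in S and 194, 141 and 268 CPM in LE. The T cell marker CD3E and the B cell marker MS4A1 were listed in neither table. Of the lymphatic markers, PROX1, MMRN1 and LYVE1 were listed for S only. PROX1 was at 0, 0.305 and 0 CPM in S and LYVE1 at 0.402, 0.915 and 1.91 CPM, MMRN1 was at 0 in all 3 libraries, and FLT4 was the single gene in both tables and not called (7.7, 4.07 and 6.14 CPM in S, 12.8, 7.83 and 6.8 CPM in LE). Of the nerve and red blood cell list, S100B and HBB were in both tables and not called, HBB with 185, 15.6 and 122 CPM in S and 59.1, 283 and 163 CPM in LE. Genes of the mitochondrial genome were not listed in either table.

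Of the list of ciliated cells and glands, the 2 genes in both tables, both of cilia, went in the opposite direction to those of fibroblasts. No gland gene of this list was in both tables. DNAH5, a heavy chain of the outer dynein arm of motile cilia, was at 30.4, 76.3 and 26.5 CPM in S and 1.94, 10.1 and 5.1 CPM in LE without overlap and was called. DNAH9 did not overlap either but was not called, at 60.8, 59.8 and 48.7 CPM in S and 24.5, 13.7 and 32 CPM in LE (FDR 0.062). FOXJ1, the transcription factor of motile ciliogenesis, and FOXA2, a transcription factor of uterine glands, were listed for S and not for LE, with 7.65, 22.9 and 17.2 CPM and 11.7, 63.4 and 12.6 CPM in the S libraries. The other 5 genes of this list were in neither table.

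**Figure D1:**
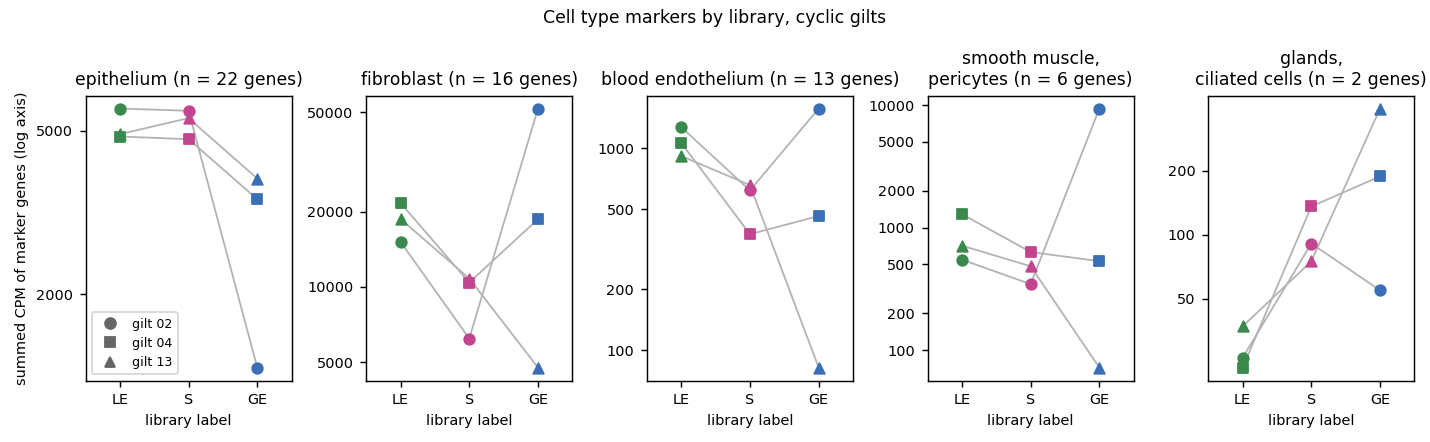
Summed CPM of marker genes present in both tables (log axes) in the libraries labelled LE, S and GE of the 3 cyclic gilts, with lines joining libraries of a gilt. The S points lie beside the LE points for epithelium (for example 5595 and 5666 CPM in gilt 02) and below them for fibroblast, endothelium and smooth muscle markers. They lie above the LE points for the 2 genes of the gland and cilia list, both of cilia.

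Across all genes, the paired quasi-likelihood test of edgeR called 227 of 10889 genes at an FDR below 5% (2.08%), 69 of them with higher (0.634%) and 158 with lower expression in S. Only 1 gene, LOC100514051, passed an FDR of 1%, while 1796 genes had an unadjusted p below 0.05. Without the gilt as a block the test called 19 genes, 6 higher and 13 lower, all 19 among the 227. The calls depended on gilt 13 most of all. Without it 2 genes were left (LOC100514051 and SULT2A1), so that every other call named here was lost, compared with 140 without gilt 04, where 36 were higher and 104 lower, and 207 without gilt 02, where 117 were higher and 90 lower. In gilt 13, 3.60% of the 8249 genes with a mean of at least 20 CPM differed more than 2-fold between S and LE, against 8.49% in gilt 02 and 10.6% in gilt 04.

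**Figure D2:**
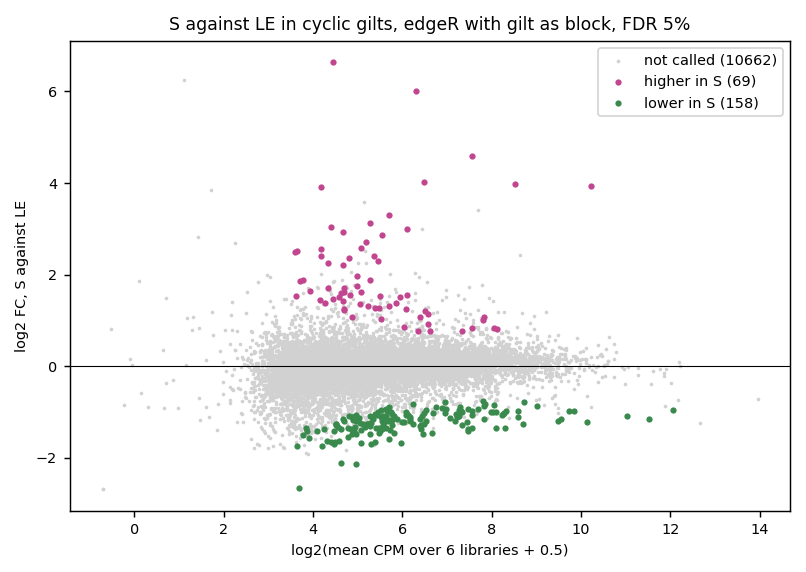
Log2 FC of S against LE over the mean level of each of 10889 genes. Genes called at an FDR of 5% are coloured, 69 above and 158 below 0, and the called genes above 0 reach larger differences than those below.

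Genes with higher expression in S included genes of motile cilia, 5 of the 15 with the largest increase. The axoneme, the microtubule core of a motile cilium, beats through dynein arms whose heavy chains are the DNAH proteins, and CFAP proteins and HYDIN belong to its accessory structures. HYDIN (gene ID 100513208, chromosome 6, 13895276 to 14307790), a protein of the central pair of microtubules, had 91.5, 143 and 129.6 CPM in S and 14.4, 26.6 and 7.77 CPM in LE (8.02-fold higher in S, FDR 0.0158). CFAP47 (gene ID 100523157, chromosome X, 31879143 to 32331543) was at 26.3, 48.5 and 34.9 CPM in S and 3.89, 7.27 and 2.67 CPM in LE (log2 FC 3.03, SE 0.30, FDR 0.0158). CFAP54 (gene ID 102161224, chromosome 5, 86792443 to 87102621) reached 61.2, 77 and 33 CPM in S and 8.16, 15.4 and 5.34 CPM in LE (log2 FC 2.59, SE 0.22, FDR 0.0158). For all 3 genes the lowest S library was above the highest LE library, and gilt 04 had the highest LE value. DNAH5 (gene ID 100623921, chromosome 16, 3114267 to 3366189) differed by a log2 FC of 2.94 (SE 0.31, FDR 0.0158). GMNC, a regulator at the start of multiciliated cell formation, had 20.7, 149 and 38 CPM in S and 7.77, 8.67 and 3.64 CPM in LE (log2 FC 3.12, SE 0.46, FDR 0.0254), where the S value of gilt 04 was well above the other S libraries.

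All genes with a DNAH, DNAI, CFAP, RSPH or TEKT symbol were then counted, a list taken up after values of these families had been seen. Of the 41 listed for any cell type, 20 were in both tables. Of these, 10 were called higher in S, beside 0.634% of all genes tested, and 0 lower. All 20 had a log2 FC above 0 (0.03 to 3.03, median 1.27). Within gilts the median log2 ratio was 1.46, 1.41 and 1.13. A further 11 were listed for S and not LE, and 0 for LE and not S, beside 642 and 525 of all genes. DNAH12 had 63.6, 94.8 and 48.7 CPM in S and 7.77, 19.6 and 11.9 CPM in LE, DNAH6 75.7, 95.1 and 79.8 CPM in S and 25.6, 35.8 and 34.5 CPM in LE, and DNAH10 54.3, 67.9 and 53.7 CPM in S and 24.1, 22.6 and 25.5 CPM in LE. No overlap of the libraries was seen for 15 of the 20 genes, beside 9.17% of all genes with higher values in every S library. The exons of CFAP44 and DNAH7, both called, overlap genes of the opposite strand (BOC and SLC39A10) by 21.1% and 15.4%. With gilt 13 left out 0 of these genes were called (median log2 FC 1.46), without gilt 02 9 and without gilt 04 8, and 2 without the block.

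Promoter sequence of called cilia genes is shown because RFX factors, which together with FOXJ1 switch on ciliary genes, bind motifs that contain GTTGCC. The 250 bases before the annotated gene start were read from the RefSeq genome Sscrofa11.1 in the direction of transcription, and GTTGCC on either strand is in capitals.
CFAP54 (chr5:87102622-87102871, minus strand): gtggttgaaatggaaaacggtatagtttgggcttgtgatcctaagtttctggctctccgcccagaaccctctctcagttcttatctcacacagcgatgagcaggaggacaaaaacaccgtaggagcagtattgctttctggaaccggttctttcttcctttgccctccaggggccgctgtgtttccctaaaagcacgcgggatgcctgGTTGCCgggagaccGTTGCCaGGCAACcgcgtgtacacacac
DNAH6 (chr3:60114275-60114524, minus strand): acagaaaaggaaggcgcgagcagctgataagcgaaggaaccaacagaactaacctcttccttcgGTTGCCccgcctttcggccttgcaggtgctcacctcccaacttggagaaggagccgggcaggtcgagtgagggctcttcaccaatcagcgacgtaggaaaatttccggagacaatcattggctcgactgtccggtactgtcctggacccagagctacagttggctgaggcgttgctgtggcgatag
The CFAP54 window holds 3 matches, of which the last 2 lie 1 base apart on opposite strands, and that of DNAH6 holds 1. Of the 10 called genes of these families, 3 had a match, the third being DNAH5, whose window shares a stretch of 20 bases with 219 other promoters of tested genes and is not shown. The motif was found in 10.6% of 10886 promoters of tested genes, in 12 of 69 promoters of genes called higher (17.4%) and in 10 of 158 of genes called lower (6.33%). The full X-box motif of RFX factors was in 0 of the 10 and in 0.322% of all. A match is a description of these windows and does not show binding.

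Other genes of large difference in S included secreted and transport proteins. LOC100514051 (gene ID 100514051, chromosome 5, 86094295 to 86240246), annotated as a long non-coding RNA, had 133, 278 and 52.9 CPM in S and 2.33, 4.47 and 0.485 CPM in LE (log2 FC 6.01, SE 0.23, FDR 0.000105). Its LE values rest on few counts, that of gilt 13 on less than the level of 3 counts (0.749 CPM). CHRDL1 (gene ID 100521058, chromosome X, 90703422 to 90827216), a secreted BMP antagonist, had 68.4, 757 and 276 CPM in S and 10.9, 11.7 and 11.7 CPM in LE (log2 FC 4.58, SE 0.55, FDR 0.0158). In LE its level hardly varied between gilts, whereas in S gilt 04 was far above gilt 02. SAL1, the salivary lipocalin of the pig, was at 24.7, 312 and 169 CPM in S and 9.33, 11.7 and 4.85 CPM in LE (log2 FC 4.02, SE 0.62, FDR 0.0264), and the long non-coding RNA LOC100626264 at 460.5, 4735 and 1589.7 CPM in S and 86.3, 186 and 67.5 CPM in LE (log2 FC 3.93, SE 0.45, FDR 0.0158). Both followed the same order of the gilts in S, highest in gilt 04 and lowest in gilt 02.

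SULT2A1, a sulfotransferase of steroids and bile acids, had 345 counts in the S libraries together and 3 in LE, a ratio of 143 after scaling by library totals (exact 95% interval 48.4 to 696, counting error only). Its level in S was 81.4, 44.4 and 0.767 CPM, so that gilt 13 was below the level of 3 counts in S as in LE. GABRP, a subunit of the GABA type A receptor found in epithelia, was at 29.6, 57.6 and 12.3 CPM in S and 1.94, 2.52 and 1.46 CPM in LE (log2 FC 3.92, SE 0.36, FDR 0.0158). SLC30A2, a zinc transporter, had 32, 175 and 42.6 CPM in S and 8.94, 11.2 and 7.77 CPM in LE (log2 FC 2.87, SE 0.39, FDR 0.0227). The last of the 15 genes with the largest increase were CCDC190 (log2 FC 3.30), RGS17 (2.52), a regulator of G protein signalling, and STOX1 (2.40), a winged helix transcription factor. All had S libraries above LE libraries without overlap, which was part of the rule for naming them. With a mean of at least 20 CPM in S, 57 of the called genes met this rule.

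**Figure D3:**
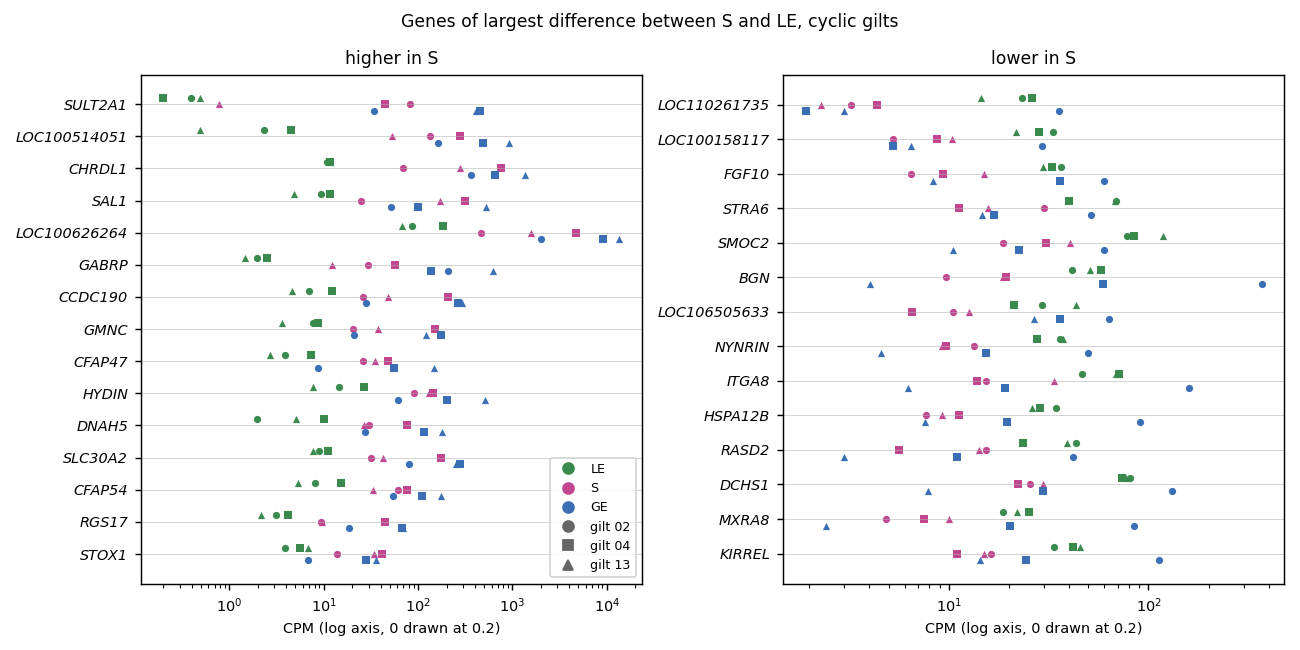
CPM (log axis, 0 drawn at 0.2) of the genes named by size in each direction, for LE, S and GE of gilts 02, 04 and 13. S and LE points are separated for each gene, and for all 15 genes higher in S the GE point of gilt 13 lies above the S point of gilt 13. The GE library of gilt 02 had a higher fibroblast and a lower epithelial marker sum than S and LE of this gilt. In gilt 02 the GE point lies below that of S for SULT2A1, CFAP47, HYDIN, DNAH5, CFAP54 and STOX1. In gilt 04 it does so for CHRDL1, SAL1 and STOX1.

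Genes of the extracellular matrix were among those with lower expression in S. Fibrillar collagens give tissue its tensile strength, and types V and VI associate with them. Of 15 genes in this list 12 were present in S and LE, all with a negative log2 FC (-1.47 to -0.72, median -1.12). Of these, 9 were called lower in S, beside 1.45% of all genes tested. COL6A2 had 45, 59.5 and 56.7 CPM in S and 164, 143 and 139.6 CPM in LE (log2 FC -1.47, SE 0.18, FDR 0.0158), and COL5A1 78.2, 88.2 and 97.8 CPM in S and 196, 191 and 215 CPM in LE (log2 FC -1.19, SE 0.14, FDR 0.0158). COL3A1 was at 1829, 3734 and 3136 CPM in S against 3950.2, 7336 and 5504 CPM in LE (log2 FC -0.97, SE 0.17, FDR 0.0374), the lowest value of LE being close to the highest of S. COL15A1, COL6A3, COL1A2, COL5A3, COL1A1 and COL5A2 were the others called, with log2 FC between -1.35 and -0.87. The median log2 ratio of the list was -1.22, -1.10 and -0.90 in the 3 gilts, and 3 of its genes were called without the block. Its count was 0 without gilt 13, 4 without gilt 02 and 8 without gilt 04.

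The basement membrane list, which holds the type IV collagens, laminins, nidogens and perlecan that separate epithelium from stroma, had 22 of 24 genes in both tables (median log2 FC -0.95). Of these, 10 were called lower, beside 1.45% of all genes tested, and 0 higher. NID1, a linker between laminin and collagen IV, was at 86.7, 129 and 99.3 CPM in S and 232, 281 and 218 CPM in LE (log2 FC -1.22, SE 0.15, FDR 0.0158). COL4A1 had 436, 432 and 415 CPM in S and 1204, 1006 and 794 CPM in LE (log2 FC -1.21, SE 0.16, FDR 0.0227). COL4A2, LAMA2, LAMA4, LAMB1, LAMC1, LAMC3, NID2 and HSPG2 were called as well. Laminin chains known from epithelia did not follow them, since LAMA5 was at 283, 141 and 185 CPM in S and 276, 188 and 176 CPM in LE (FDR 0.816) and LAMA3 was higher without overlap but not called (182, 441 and 90.1 CPM in S and 66.8, 53.4 and 79.9 CPM in LE, FDR 0.15). Without gilt 13 none of the list was called, without gilt 02 6 and without gilt 04 8, and 0 without the block.

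BGN (gene ID 397396, chromosome X, 124282048 to 124295450), a small proteoglycan that binds collagen, was at 9.72, 19.4 and 18.8 CPM in S and 41.2, 58.2 and 50.7 CPM in LE (log2 FC -1.67, SE 0.21, FDR 0.0196). SMOC2 (gene ID 100737228, chromosome 1, 1193163 to 1332739), a matricellular protein of the SPARC family, had 18.6, 30.7 and 40.6 CPM in S and 77.7, 85 and 118 CPM in LE (log2 FC -1.67, SE 0.18, FDR 0.0158). Of the list of proteoglycans and elastic or matricellular proteins 27 of 29 genes were in both tables, with a median log2 FC of -0.88. Of these, 8 were called lower, beside 1.45% of all genes tested. Besides BGN these were FBLN1, SPARC, LTBP4, TNXB, THBS1, FBLN2 and FN1. Without the block or without gilt 13 none was called, without gilt 04 5 were called lower, and without gilt 02 3 lower and 1 higher. Among matrix proteases and inhibitors, 2 of 19 were called lower, beside 1.45% of all genes tested. These were the gelatinase MMP2 (159.6, 267 and 319 CPM in S, 418, 546 and 613 CPM in LE) and ADAMTS9, with a median of -0.70 over the list.

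The gene with the largest decrease was LOC110261735 (3.24, 4.38 and 2.3 CPM in S, 23.3, 26 and 14.6 CPM in LE), but 75.1% of its 50-base windows occur in other genes, 43.8% in the histone gene HIST1H3E, and reads could have been divided between them. The same holds for LOC100158117, with 80.1% of its windows shared. ITGA8, an integrin chain of mesenchymal cells that binds matrix proteins, was at 15.4, 13.8 and 33.7 CPM in S and 46.6, 71.6 and 69.2 CPM in LE (log2 FC -1.65, SE 0.27, FDR 0.0313). DCHS1, a large cadherin of planar cell polarity, had 25.5, 22.2 and 29.5 CPM in S and 81.2, 73.5 and 77.4 CPM in LE (log2 FC -1.59, SE 0.17, FDR 0.0158), with little spread in either label. LOC106505633, NYNRIN, HSPA12B, RASD2, MXRA8 and KIRREL were also among the 15 genes of largest decrease, with log2 FC from -1.65 to -1.54 (11.8% of the exon bases of HSPA12B overlap C17H20orf27 on the opposite strand), and 145 called genes in all met the rule of no overlap and a mean of at least 20 CPM in LE.

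Among signalling genes, FGF10 (gene ID 100525086, chromosome 16, 28695465 to 28779953), a growth factor of mesenchyme that acts on epithelial FGFR2, was lower in the libraries labelled S. It had 6.48, 9.39 and 15 CPM in S and 36.5, 32.7 and 29.6 CPM in LE (log2 FC -1.70, SE 0.32, FDR 0.0429), with every S library below every LE library. It was the single gene called of the 15 paracrine ligands in both tables, beside 1.45% of all genes called lower. The call was lost without any single gilt, without the block and in thinned counts (FDR 0.0514 to 0.133). Of the 18 receptors for such ligands, PDGFRB, PDGFRA and AXL were called lower, beside 1.45% of all genes tested. Of these calls 2 were left without gilt 02 and without gilt 04, and 0 without gilt 13 or the block. KDR, the VEGF receptor of endothelium, was lower without overlap but not called (201, 100.4 and 176 CPM in S, 399.9, 227 and 231 CPM in LE, FDR 0.0591). IGFBP7 was called lower (158, 179.6 and 212 CPM in S, 348, 417 and 332 CPM in LE), although 22.4% of its exon bases overlap POLR2B on the opposite strand, and it was the single called gene of the 3 IGF-binding proteins in both tables, with 0 calls without gilt 02, gilt 13 or the block and 2 without gilt 04.

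Retinoid genes moved in both directions. STRA6, the membrane receptor that takes up retinol, was at 30, 11.3 and 15.7 CPM in S and 68.4, 40 and 67.7 CPM in LE (log2 FC -1.69, SE 0.23, FDR 0.0227), and ALDH1A2, an enzyme that makes retinoic acid, at 47.4, 36.9 and 57.1 CPM in S and 137, 121 and 131 CPM in LE (log2 FC -1.48, SE 0.17, FDR 0.0158). ALDH1A1, another enzyme of this step, was higher in S, with 53.1, 123 and 13.8 CPM in S and 15.2, 5.59 and 4.37 CPM in LE (log2 FC 2.70, SE 0.52, FDR 0.0476), although the S value of gilt 13 lay within the range of LE. RARRES1 was called lower, and the other 8 of the 12 retinoid genes in both tables were not called, beside 2.08% of all genes called. Without gilt 02 or gilt 04, 1 gene of this list was called higher and 2 lower, without the block 1 lower, and without gilt 13 none.

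In the TGF-beta, BMP and activin family, the activin antagonist FST (24.7, 21.6 and 40.6 CPM in S, 54, 60.1 and 86.2 CPM in LE), FSTL1 and GDF7 were called lower and CHRDL1 higher among 12 ligands and modulators. The counts of this paragraph stand beside 0.634% of all genes called higher and 1.45% called lower. A count of 0 or 1 in lists of this size is not a result about a list. Of 22 receptors and SMADs, TGFBR2 was called lower (log2 FC -0.78) and ID4, a BMP target that inhibits helix-loop-helix factors, higher (log2 FC 0.93). ERBB4, a receptor of neuregulins and HB-EGF, was called higher, at 160.0, 135 and 81.3 CPM in S and 83.9, 78.3 and 53.4 CPM in LE (log2 FC 0.78, SE 0.15, FDR 0.0476), with overlap of the ranges, and it was the single call among 10 genes of the EGF family. The WNT antagonist FRZB was called lower among 24 WNT receptors, antagonists and targets (median 0.10). By the quasi-likelihood test of edgeR, DESeq2 or voom, 0 of 3 WNT ligands, 0 of 10 hedgehog genes and 0 of 12 Notch genes were called. In the quasi-likelihood test 1, 4 and 2 of these genes had an unadjusted p below 0.05, beside 1796 of all 10889 genes. The likelihood ratio test of edgeR called 1 gene of each of these lists, lower in S. Of 27 ephrins, semaphorins and plexins, PLXND1 and SEMA5A were called lower. The calls of ERBB4 and FRZB were lost without any single gilt and without the block. None of the quasi-likelihood calls in this paragraph was left without gilt 13 or the block. Without gilt 02 the receptor and SMAD list and the plexin list had 0 calls as well.

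Of 25 mesenchymal transcription factors listed in S and LE alike, 3 were called lower, beside 1.45% of all genes tested. These were ZEB2, OSR2 and HOXA10, and the list had a median log2 FC of -0.88. None of the 3 was called without gilt 13 or the block, and 1 gene of the list was called with LE of gilt 06 added. OSR2 was at 10.9, 12.8 and 22.6 CPM in S and 38.1, 38.3 and 49.3 CPM in LE (log2 FC -1.47, SE 0.22, FDR 0.0254). HAND2, a progesterone-induced transcription factor of uterine stroma, was listed for LE and not for S, at 12.6, 15.4 and 10.9 CPM, as were TWIST1, TWIST2, HOXA9, HOXD9, HOXD11, MEIS2, FOXF1 and HEYL, while GATA6 of the same list was listed for S and not for LE (2.01, 7.93 and 6.51 CPM). NR2F2, the COUP-TFII receptor of stromal cells, was called lower (100.4, 87.9 and 189 CPM in S, 219, 258 and 275 CPM in LE, log2 FC -1.07, SE 0.20, FDR 0.0476). It was the single call among 35 nuclear receptors and coregulators, near the 2.08% of all genes called and not a result about the list. The call was lost without any single gilt, without the block and with LE of gilt 06 added. ESR1 and PGR, the receptors for estrogen and progesterone, were not called, ESR1 with 429, 699 and 535 CPM in S and 485, 410.4 and 437 CPM in LE and PGR with 54.7, 61.3 and 108 CPM in S and 94, 92.8 and 104 CPM in LE.

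Lists of immune and growth genes held between 1 and 2 calls each, all lower in S, beside 1.45% of all genes. CD74, the invariant chain of MHC class II, was called lower (166, 95.7 and 224 CPM in S, 353, 177 and 346 CPM in LE) with overlapping ranges, and the 10 genes of its list had a median log2 FC of -0.71. The complement components and regulators had SERPING1 and C1S called lower of 16, and the chemokine and cytokine list TNFSF10 of 15. MKI67, a protein of dividing cells, was lower in S (10.5, 10.6 and 14.2 CPM, against 35, 33.3 and 26.5 CPM in LE, log2 FC -1.41, SE 0.26, FDR 0.0423), the single call of 22 cell cycle genes (median -0.47). Without any single gilt and without the block, the calls of CD74, C1S, TNFSF10 and MKI67 were lost, and that of SERPING1 was lost without gilt 02, gilt 13 or the block. A further 10 cell cycle genes were listed for LE and not for S, beside 525 of all genes. Among them were CDK1 (2.28, 8.67 and 2.49 CPM in LE) and CCNB1 (5.71, 8.11 and 5.97 CPM in LE). A gene can be listed through pregnant gilts alone.

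Lists of epithelial function are given with their medians, since 0 calls in a list of this size is near the 2.08% of all genes called and is not a result about it. There were 0 calls among 19 tight junction and polarity genes (median log2 FC 0.05), 14 epithelial transcription factors (0.06), 8 mucins and apical glycoproteins (-0.21), 17 receptors for conceptus signals (0.05), 16 prostaglandin genes (0.04), 21 genes of cholesterol biosynthesis (-0.18) and 12 immediate early genes (-0.33) by the quasi-likelihood test. In the order of these lists, 1, 1, 2, 2, 6, 2 and 2 genes had an unadjusted p below 0.05, beside 1796 of all 10889 genes. DESeq2 called 1 gene of the mucin list and 2 of the prostaglandin list, and voom 1 of the latter. The likelihood ratio test of edgeR called 1 gene of the mucin list and 3 of the prostaglandin list. Of 21 genes of adherens junctions and desmosomes, CDH11, a cadherin of mesenchymal cells, was the single call and was lower (19, 22.5 and 33.7 CPM in S, 41.6, 57 and 66.5 CPM in LE). Of 8 keratins and other intermediate filaments VIM and NES were called, neither of them a keratin, and of 21 genes of endocytosis DAB2 was called lower. None of these 4 calls was left without gilt 13 or the block, those of CDH11, DAB2 and NES were also lost without gilt 04, and those of VIM and NES without gilt 02. KRT18, KRT19 and KRT7 were not called, with log2 FC of -0.39, 0.27 and -0.37.

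**Figure D4:**
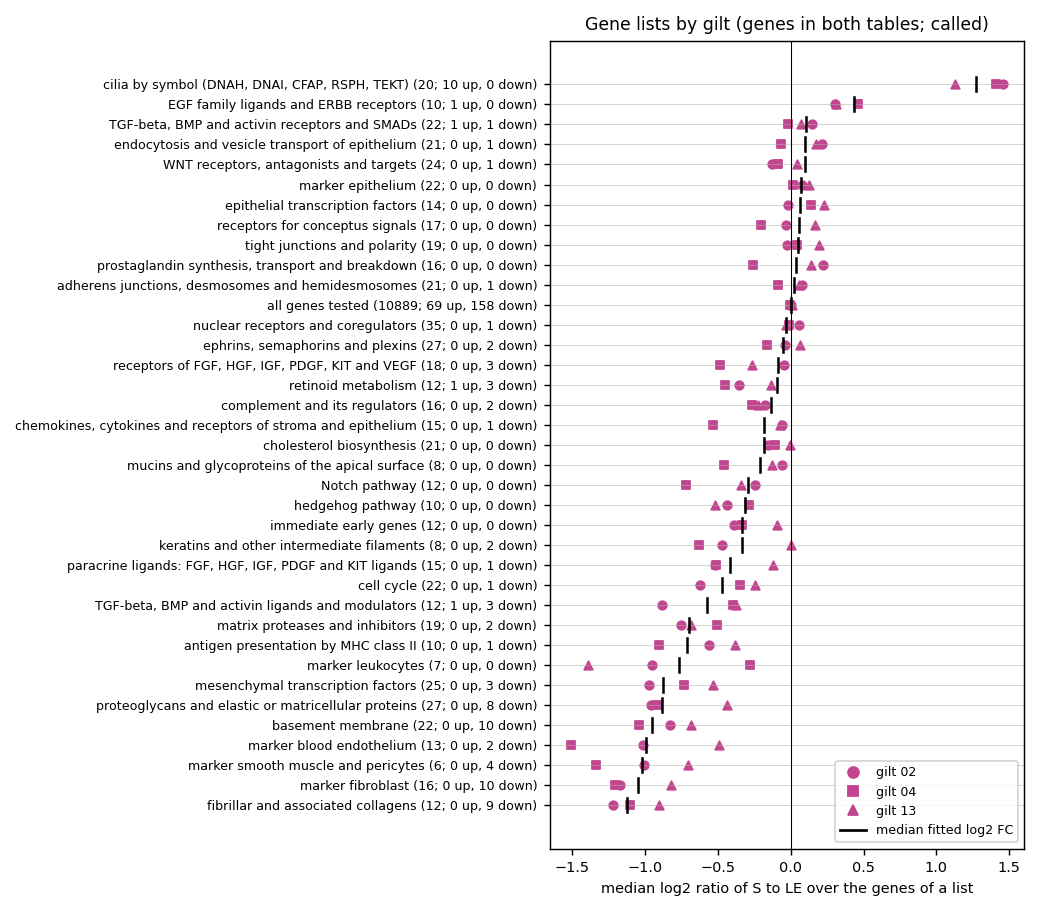
Median log2 ratio of S to LE over the genes of each list with at least 5 genes in both tables, for gilts 02, 04 and 13 (points) and for the fitted log2 FC (black lines), with the number of genes and of calls in each direction beside the name. Collagen, fibroblast, vessel and basement membrane lists lie below 0 in all 3 gilts, most epithelial lists near 0, and the cilia genes above 1.

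By presence in the tables, 642 genes were listed for S and not for LE, and 525 for LE and not for S. Every gene of the S table reached at least 7.93 CPM in 2 of all 6 libraries of S, and every gene of the LE table at least 7.07 CPM in 3 of all 8 libraries of LE, those of pregnant gilts included, so that a gene can be listed through pregnant gilts alone, and absence means that a gene did not pass the filter of the authors and not that it was 0. The highest levels among genes of the S table alone were those of ADAMTS18, a secreted metalloprotease (65.6, 403 and 80.8 CPM), RFX6, a transcription factor of the RFX family (14.1, 278 and 71.2 CPM), and UABP-2, a protein that associates with uteroferrin in uterine secretions (289, 31.1 and 1.53 CPM). UABP-2 was highest in gilt 02, the other 9 of the first 10 in gilt 04. LOC100157017, CCL28, an epithelial chemokine (1.21, 144 and 61.2 CPM), LOC100153854, CES3, CDH6, AQP3, a water and glycerol channel (3.22, 111 and 19.1 CPM), and SLC23A1 followed, and all 10 were listed for GE. The first 10 of the LE table alone, GPA33, CHST3, SLC35F1, PTH1R, HES4, NRG2, HOXD9, FCGR3A, LOC100624628 and LOC102166259, had means of 14.9 to 18.1 CPM. Of the genes of S alone 481 were listed for GE, and of those of LE alone 208.

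GE of the same gilts was set beside these values as CPM of its own table, without TMM and without a test. HYDIN was at 61.7, 204 and 512 CPM in GE, CHRDL1 at 361, 646 and 1366 CPM and GABRP at 207, 136 and 619.6 CPM. For the 69 genes higher in S, the GE library was above LE in 54 genes in gilt 02, 67 in gilt 04 and 69 in gilt 13, and above S in 22, 51 and 67 genes. Of all 10643 tested genes listed for GE, 4756, 4669 and 4783 were above LE and 4595, 4484 and 4826 above S in the 3 gilts. Unlike all genes, the called genes were picked by their values in these same S and LE libraries. That choice favours GE above LE for the 69 genes and GE above S for the 158 genes lower in S. COL1A1 was at 12565, 4596 and 773 CPM in GE and ACTA2 at 3784, 117 and 3.78 CPM, with gilt 02 far above and gilt 13 far below the S and LE libraries. For the 158 genes lower in S, GE was above LE in 135 genes in gilt 02, in 20 in gilt 04 and in 5 in gilt 13, and above S in 152, 132 and 15 genes. Summed fibroblast markers in GE were 51667, 18662 and 4753 CPM and summed epithelial markers 1324, 3406 and 3824 CPM. In gilt 02, S and LE had 6211 and 15128 CPM of the fibroblast markers and 5595 and 5666 CPM of the epithelial markers. The markers of the GE library of gilt 02 thus went against its label as well, and counts above S or LE are between labels.

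In pregnant gilts, where S and LE come from gilts 01, 05 and 14, the same paired test called 124 genes (1.14%), 121 higher and 3 lower in S. Of the 69 genes higher in S of cyclic gilts 66 had a positive log2 FC in pregnant gilts (median 2.07), 20 of them called higher, beside 5458 positive of all 10889 genes. Of the 158 lower genes 128 had a negative log2 FC (median -0.44), and 1 was called lower. DNAH5 had a log2 FC of 2.46 and CHRDL1 of 5.60 (FDR 0.0159 and 0.0622), and COL1A1 one of 0.30 (FDR 0.8). The cilia families had a median log2 FC of 1.79 in pregnant gilts. The median of the fibroblast markers was 0.00 (8 of 16 genes lower), that of the epithelial markers -0.53 and that of the blood endothelium markers -0.91.

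Whether S and LE differed otherwise in pregnant than in cyclic gilts was tested by an interaction term in a joint fit of 12 libraries with the gilt as a block. It was called for 1 of 10890 genes (0.00918%), TNIK, a kinase of the WNT pathway. In cyclic gilts TNIK was at 74.7, 62.3 and 92.7 CPM in S and 78.8, 82.3 and 81.9 CPM in LE, with overlapping ranges. In pregnant gilts 01, 05 and 14 it had 65.3, 138 and 106 CPM in S and 9.63, 18.5 and 17.4 CPM in LE. The difference of the log2 FC, pregnant minus cyclic, was 2.84 (SE 0.28, FDR 0.0461). The count was 0 without the block and when gilt 01, 02 or 13 was left out (720 to 1293 genes with an unadjusted p below 0.05), 2 without gilt 04, 9 without gilt 14 and 338 without gilt 05, and 269 in the Wald test of DESeq2. Among the genes of the next smallest p were LOC100625479, DNAJC12, LOC102166944, PCTP, NDRG2, ARHGEF38, FRMPD4 and UGT8, all with a larger S to LE ratio in pregnant gilts and an FDR of 0.0982.

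**Figure D5:**
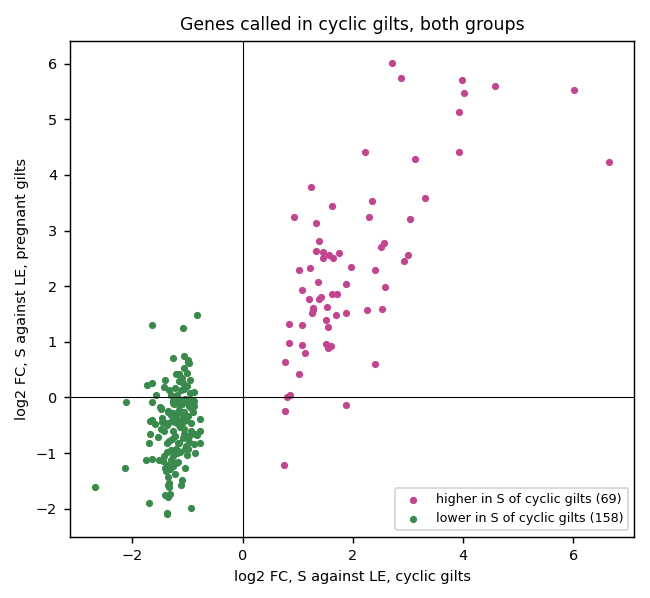
Log2 FC of S against LE in pregnant gilts over that in cyclic gilts for the 227 genes called in cyclic gilts. Of the genes higher in S of cyclic gilts, 66 of 69 lie above 0 on the vertical axis, and of the lower genes 128 of 158 lie below it, with values closer to 0.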

How the data were processed

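RNA of captured cells was sequenced from Ovation SoLo libraries. After adapter clipping and trimming of the first bases, the authors aligned reads to Sscrofa11.1 by Hisat2, removed PCR duplicates by random bases of the adapter, applied a CPM filter to each cell type and deposited a table of whole-number read counts per NCBI gene for each, without normalization. The counting tool, the use of strand and the filter level are not given in the sources used here. The S and LE tables were joined by gene ID, and genes missing from a table were treated as not listed. Counts of the 6 libraries were fitted in edgeR 4.0.16 (R 4.3.3) with TMM, the gilt as a fixed block and the quasi-likelihood F test over 10889 genes, and called at an FDR (Benjamini-Hochberg) below 5%. S and LE share animals by the labels, and their deviations from the cell type means correlated by 0.278, 0.380 and 0.339 within gilts. The block takes up differences between gilts, so the FDR values rest on how the difference of S and LE varied over 3 gilts. Each gilt had a single library per label. Variation between captures or libraries can therefore not be told apart from variation of this difference between gilts. With 2 residual degrees of freedom per gene, the test also drew on the spread shared across genes.

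Named were the 15 genes per direction with the largest log2 FC among called genes with a mean of at least 20 CPM in the higher label and no overlap, called and defining members of 41 gene lists, the 10 highest genes of each table alone, the 5 highest genes per label and the 10 genes of smallest interaction p. Some genes met by these rules are not reported here. The members, lists and tests were chosen with earlier results of these data known. Log2 ratios within gilts used CPM + 0.5. Alternatives were other scalings and filters, the likelihood ratio test, DESeq2 1.42.0, voom (limma 3.58.1), thinned counts, LE of gilt 06 added, a joint fit with pregnant gilts and leaving out each gilt. Scripts were tested on simulated data. Intervals and floors cover counting error only.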

Additional observations from a re-analysis of the deposited data

Results flagged for a closer look

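For TNIK, the difference between S and LE was not the same in pregnant and cyclic gilts by the interaction term of the joint fit (2.84 on the log2 scale, pregnant minus cyclic, SE 0.28, quasi-likelihood FDR 0.0461 of edgeR). TNIK was lower in LE of all 3 pregnant gilts (9.63, 18.5 and 17.4 CPM) than in LE of all 3 cyclic gilts (78.8, 82.3 and 81.9 CPM), while the S libraries of both groups overlapped (65.3, 138 and 106 CPM in pregnant and 74.7, 62.3 and 92.7 CPM in cyclic gilts).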

How the results depend on the processing

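The number of called genes was 227 (69 higher and 158 lower in S). Without the replicate block 19 genes were called (6 higher, 13 lower), all of them among the 227. A likelihood ratio test called 831 (289 and 542), the DESeq2 Wald test 417 (154 and 263), and voom 289 (106 and 183). A joint fit of 12 libraries called 10 genes, all higher and 0 lower, an FDR below 1% left 1 gene (1 higher, 0 lower) and a p below 0.0021 357 (118 and 239). Without single gilts the number ranged from 2 to 207, that of higher genes from 2 to 117 and that of lower genes from 0 to 104, so that the split turned to more higher than lower genes without gilt 02 and without gilt 13. For the 30 genes named by size, RLE scaling, library size alone and voom kept the direction and the call of all 30, and no setting turned a direction, but without gilt 13 28, without the block 25, in the joint fit 24 and with LE of gilt 06 added 10 of them were no longer called. The cause was not tested.

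The interaction count, 1 gene, was 0 without the block, 269 with DESeq2, 0 at an FDR below 1% and ranged from 0 to 338 without single gilts. With a mean of at least 10 CPM, 176 genes were listed for S and not LE and 85 for LE and not S. The median log2 FC of the epithelial markers ranged from 0.00213 to 0.107 without single gilts and that of the fibroblast markers from -1.21 to -0.95. The median of nuclear receptors and coregulators (-0.03) turned to 0.0332 without the block and ranged from -0.0726 to 0.0159 without single gilts, and that of WNT receptors, antagonists and targets (0.10) from -0.00956 to 0.0547, each turning its sign. Other medians near 0 did so too, that of receptors for conceptus signals (0.05) to -0.12 without gilt 13 and that of prostaglandin genes (0.04) to -0.08 without gilt 02, -0.07 without gilt 13 and -0.02 with LE of gilt 06 added. At the depth of these libraries, 3 counts are 0.749 to 1.21 CPM, and lower values rest on fewer counts.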

Other observations

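By mean CPM, which is not corrected for gene length and so does not rank transcripts, the highest genes in the libraries labelled S included LOC102165911, EEF1A1, LOC102723301 and LOC106509199, and in those labelled LE LOC102165911, LOC102723301, LOC102158335, COL3A1 and LOC102158401. The non-coding RNA LOC102165911 varied from 5934, 25291 and 6592 CPM in S to 29353, 19904 and 8151 CPM in LE without a call (FDR 0.521). LOC102723301, annotated as the RNA of the signal recognition particle, had 1416, 8881 and 2857 CPM in S and 8352, 12337 and 4832 CPM in LE (FDR 0.159). EEF1A1, the elongation factor that brings tRNA to the ribosome, was at 3308, 5846 and 5353 CPM in S and 3934, 5091 and 5076 CPM in LE and not called. Of LOC102158401, which had 3006, 2673 and 1086 CPM in S and 10040.0, 4682 and 1111 CPM in LE, 42.7% of the 50-base windows occur in other genes.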
